A study of Danio rerio with 6 samples.

Results

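Matrix metalloproteinases are zinc-dependent enzymes that cut collagens, gelatin and other proteins of the extracellular matrix, and the tissue inhibitors of metalloproteinases (TIMPs) are small secreted proteins that bind and block them. The metalloproteinases are made as inactive precursors. In mammals TIMP-2 has a further role at the cell surface, where it joins the membrane-anchored enzyme MMP14 to the precursor of the gelatinase MMP2, which MMP14 of a neighbouring complex then activates. Matrix proteases of this family are known from the growing and regenerating zebrafish fin, where matrix is laid down and removed as the fin fold changes shape.

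The genes described here are the mmp and timp genes whose RefSeq accessions name a probe of the array. Of the 10 genes listed under that rule, 7 had probes, namely mmp2, mmp9, mmp14a, mmp14b, mmp30, timp2a and timp2b, and no probe was matched to mmp11a, mmp13a or mmp15b by accession. They were read by 13 of the 43603 probes, and all 7 were among the 15772 genes tested, with 12 of their 13 probes bright enough to be kept. Probes entered the test when the scanner software had marked them well above background in the trained channel of all 6 arrays, or in the control channel of all 6, and each of the 12 was so marked in both.

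The samples were pooled caudal fins of wildtype zebrafish larvae at 10 days post fertilisation. Trained larvae swam daily between days 5 and 10, for 3 h at a time, and formed the pools T2 and T3. Untrained larvae formed the control pools C2 and C3. Each pool held fins of 15 larvae, so that the spread between individual fish was not measured, and each trained pool was hybridised against the control pool of its number on 2-colour Agilent arrays, 4 arrays for pair 2 and 2 arrays for pair 3, with both dye orientations in each pair. Arrays of a pair shared their RNA and were counted as 1 replicate, which leaves 2 pool pairs. The labels do not say whether pools of one group came from separate clutches, so the p-values refer to the spread between these pools only. For each gene, limma moderates that spread with the spread of all tested genes. The prior from all genes has 4.15 degrees of freedom, beside 1 from the gene itself. In a whole fin, fewer cells of a type and less RNA per cell cannot be told apart.

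Across channels and arrays 54.3% to 81.2% of probes were well above background, and no spot was saturated. The arrays carried probes for the posterior homeobox genes hoxa13b, hoxc13a and hoxd13a, the actinotrichia genes and1 and and2 and the epidermal genes krt4, krt5 and tp63, and every probe of these genes was well above background in both channels on all arrays. Of the 9 probes for the neutrophil genes mpx, lyz and npsn, 0 were kept. Pair 3 was the wider pair over all genes. The SD of log2 ratios was 0.15 in pair 2 and 0.53 in pair 3.

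No metalloproteinase or inhibitor gene passed the limma test of trained against control fins. The largest mean differences were in mmp30, with a log2 ratio of -0.37 ± 0.25 (moderated SE from limma, n = 2 pool pairs), and in the inhibitor gene timp2a, with 0.32 ± 0.20. Both came almost wholly from pair 3. In that pair timp2a was 1.49-fold higher in trained fins, while mmp2, mmp14a, mmp14b, mmp30 and timp2b lay lower. In pair 2 the same 7 genes had log2 ratios between -0.05 and 0.19. At a Benjamini-Hochberg adjusted p under 0.05 in limma 0 of the 7 genes were called, against 0% of all tested genes, and at an unadjusted p under 0.05 it was also 0 of 7, against 3.99% of all genes. That share is 629 of 15772 genes, none of which passed after adjustment.

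**Figure D1:**
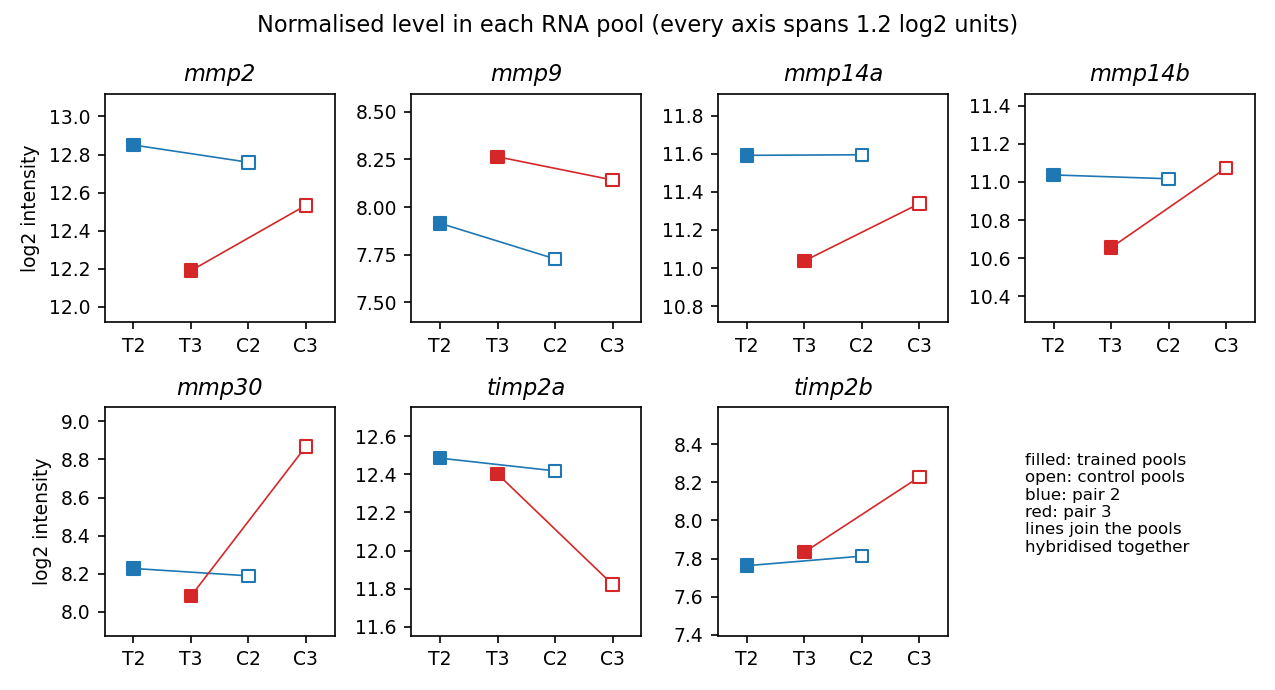
Normalised log2 intensity of the brightest probe of each gene in the trained pools T2 and T3 (filled) and the control pools C2 and C3 (open), with lines joining the pools hybridised together. For mmp30, timp2a and timp2b the pool C3 stands away from the other pools, and for mmp2, mmp14a and mmp14b the pool T3 is the lowest. Values are means over dyes and arrays of a pool, and heights cannot be compared between panels.

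The gelatinases are described first. The gene mmp2 encodes gelatinase A, which digests denatured collagen and basement membrane collagen. Its normalised log2 intensities were 12.85 in T2 and 12.19 in T3, against 12.76 in C2 and 12.53 in C3. T3 was the lowest pool and T2 the highest, so the groups overlapped. The log2 ratio of trained over control was 0.09 in pair 2 and -0.34 in pair 3, and the mean of -0.13 ± 0.19 did not pass (limma adjusted p = 0.869), with a 95% interval from -0.61 to 0.36.

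The gene mmp9 encodes gelatinase B, which in zebrafish is known for its induction in wounded and inflamed tissue. Its log2 intensities were 7.91 in T2 and 8.26 in T3, against 7.73 in C2 and 8.14 in C3. Each trained pool lay above the control pool hybridised with it, but pair 3 lay above pair 2 as a whole, so that T2 was below C3. The log2 ratio of mmp9 was 0.19 in pair 2 and 0.12 in pair 3, and it was above 0 on 6 of 6 arrays. By the brightest probes this was the 1 measured gene of the family with the same sign on all arrays. Of all genes 11.8% were higher on all 6 arrays and 8.38% lower. The dimmer kept probe of mmp14a was below 0 on all 6 arrays. The mean of mmp9, 0.15 ± 0.17, did not pass (limma adjusted p = 0.822, 95% interval -0.27 to 0.58).

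The membrane-type enzyme was represented by the paralogues mmp14a and mmp14b. For mmp14a the log2 intensities were 11.59 in T2 and 11.04 in T3, against 11.59 in C2 and 11.34 in C3. For mmp14b they were 11.04 in T2 and 10.65 in T3, against 11.02 in C2 and 11.07 in C3. In both genes T3 was the lowest pool, while T2 and C2 were nearly level. The log2 ratio of mmp14a was -0.00298 in pair 2 and -0.30 in pair 3, with a mean of -0.15 ± 0.18 (limma adjusted p = 0.837). That of mmp14b was 0.02 in pair 2 and -0.42 in pair 3, with a mean of -0.20 ± 0.19 (limma adjusted p = 0.802). The arrays of pair 3 lay close together for mmp14a, at -0.32 and -0.28, and for mmp14b, at -0.36 and -0.48, with trained RNA in Cy5 and in Cy3 in that order.

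The gene mmp30 is a further metalloproteinase of fish. Its log2 intensities were 8.23 in T2 and 8.08 in T3, against 8.19 in C2 and 8.87 in C3. Here the control pool C3 stood above the other pools by 0.70 on the log2 scale over their mean, while T2, T3 and C2 lay within a narrow range. The log2 ratio was 0.04 in pair 2 and -0.79 in pair 3, where mmp30 was 1.72-fold lower in trained fins. By the brightest probes mmp30 was the 1 of the 7 genes to reach 1.5-fold in pair 3, against 20.9% of all genes. Another kept probe of timp2a was 1.93-fold higher in trained fins in that pair. In pair 2 none of the 7 genes reached 1.5-fold, against 0.64% of all genes. The mean of mmp30 did not pass (limma adjusted p = 0.758, 95% interval of the fold 0.50 to 1.19).

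**Figure D2:**
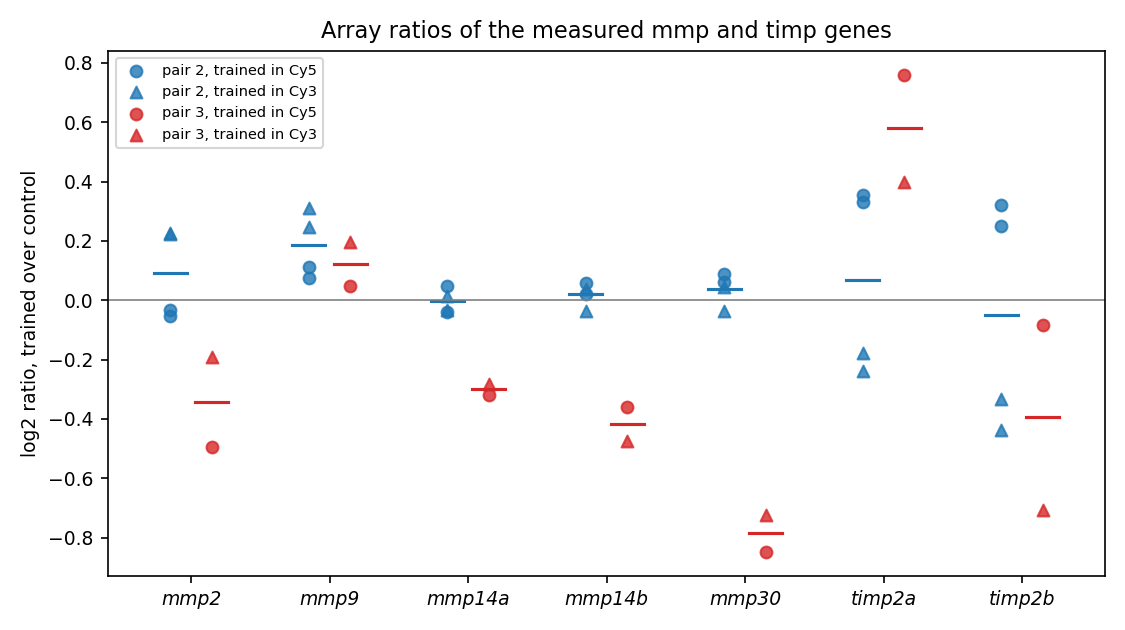
Log2 ratio of trained over control on each of the 6 arrays for the brightest probe of each gene. Circles have trained RNA in Cy5 and triangles in Cy3, blue is pool pair 2 and red is pool pair 3, and the short lines are the pair values with both dye orientations weighted equally. In timp2a and timp2b the circles lie above the triangles in both pairs, whereas for mmp30 the arrays of each pair lie close together.

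Of the inhibitors, timp2a and timp2b are the zebrafish paralogues of TIMP-2. The log2 intensities of timp2a were 12.48 in T2 and 12.40 in T3, against 12.42 in C2 and 11.82 in C3. The control pool C3 lay below the mean of the other pools by -0.61, while those 3 pools differed little. The log2 ratio was 0.07 in pair 2 and 0.58 in pair 3, and the mean of 0.32 ± 0.20 did not pass (limma adjusted p = 0.751, 95% interval -0.19 to 0.83).

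For timp2b the log2 intensities were 7.76 in T2 and 7.83 in T3, against 7.81 in C2 and 8.23 in C3. C3 was again the pool that stood apart, this time above the others, by 0.43. The log2 ratio was -0.05 in pair 2 and -0.39 in pair 3, with a mean of -0.22 ± 0.18 (limma adjusted p = 0.783). The paralogues therefore lay in opposite directions in pair 3, where the log2 ratio of timp2a exceeded that of timp2b by 0.97, against 0.12 in pair 2. Set against the enzymes, the log2 ratio of timp2a exceeded that of mmp2 by 0.92, of mmp14a by 0.88 and of mmp14b by 0.998 in pair 3, and the same differences in pair 2 were -0.02, 0.07 and 0.05. These differences rest on 1 pool pair and were not tested.

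Over the 4 pools, the one farthest from the mean of the others was C3 for mmp30, timp2a and timp2b, T3 for mmp2, mmp14a and mmp14b, and C2 for mmp9. Over all tested genes it was C3 for 47.3%, T3 for 34.8%, T2 for 9.97% and C2 for 7.91%. Of the 7 genes 0 had both trained pools below both control pools, against 13.9% of all genes, and 0 had both above, against 22.7%. Levels of separate pools depend on the normalisation between arrays, whereas the ratios within a pair do not.

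As a group the 7 genes had a median log2 ratio of -0.15, with 5 below 0 and 2 above, beside a median of 0.04 over all tested genes, of which 42.8% were below 0. With median centring of the arrays in place of loess, the median of the 7 genes was -0.35 and that of all genes -0.02. The median of the 7 genes in pair 2 was 0.04, against 0.02 over all genes, and in pair 3 it was -0.34, against 0.05 over all genes. Signs were shared by both pairs in 4 genes. Of these, mmp14a and timp2b were below 0 in both, where 24.7% of all genes were, and mmp9 and timp2a were above 0 in both, where 36.6% were. The pair 2 value of mmp14a was only -0.00298, with arrays on both sides of 0. For timp2a the sign in pair 2 is that of its brightest probe, and its other kept probes had -0.16 and -0.12. The same holds for timp2b, whose other kept probe had 0.10 in pair 2. The signs were opposite in mmp2, mmp14b and mmp30, as in 38.7% of all genes. The difference was larger in pair 3 than in pair 2 for 6 of the 7 genes, mmp9 being the exception, and for 82.1% of all genes. The plot of pair 3 against pair 2 shows the spread of the family along the axis of pair 3.

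**Figure D3:**
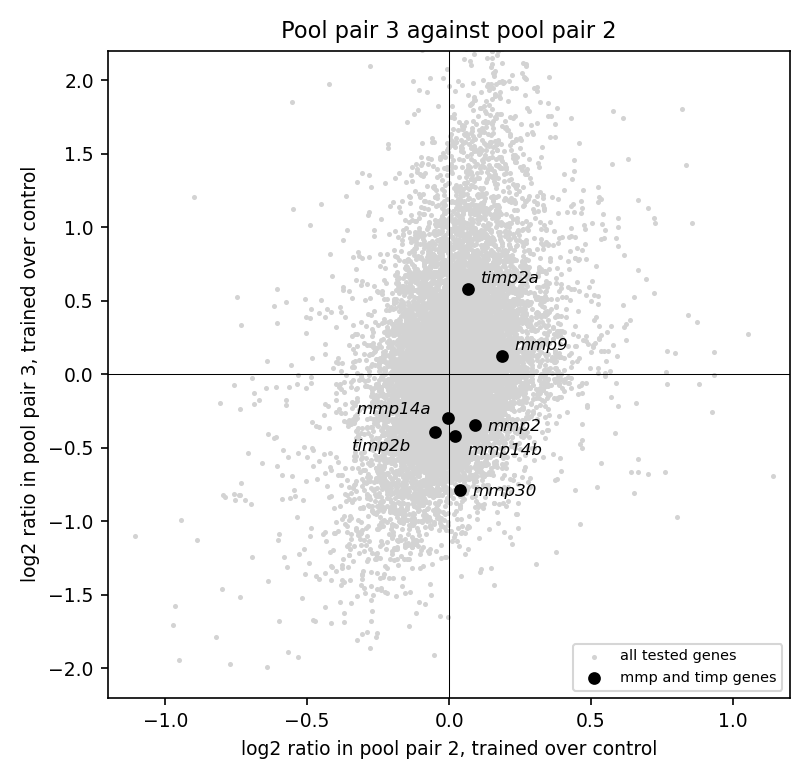
Log2 ratio of trained over control in pool pair 3 against that in pool pair 2 for each tested gene (grey) and for the 7 metalloproteinase and inhibitor genes (black). The family runs from -0.79 for mmp30 to 0.58 for timp2a along pair 3 and from -0.05 for timp2b to 0.19 for mmp9 along pair 2, inside the cloud of all genes. Axes leave out 41 of the 15772 genes.

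The repeat arrays of pair 2 lay on the other slide, so they give the error of hybridisation and slide together. For the brightest probes, repeats of the same orientation differed in log2 ratio by at most 0.02 for mmp2 and 0.10 for timp2b. These were the lowest and highest of the 7 genes. Among the other kept probes the repeats differed by up to 0.29, for timp2b. The brightest probes of the inhibitor genes differed by dye orientation. For timp2b the arrays of pair 2 gave 0.32 and 0.25 with trained RNA in Cy5 and -0.44 and -0.33 with trained RNA in Cy3, and those of pair 3 gave -0.08 and -0.71. The orientations of timp2b thus differed by 0.67 in pair 2 and 0.62 in pair 3, which is more than either pair value. For timp2a they differed by 0.55 in pair 2 and 0.36 in pair 3, for mmp2 by 0.27 and 0.31, and for mmp30 by 0.07 and 0.12. Other probes of the inhibitor genes varied in this. Another probe of timp2b differed by 0.04 in pair 2 and 0.19 in pair 3, and the other probes of timp2a by 0.14 and 0.41 in pair 2 and by 0.03 and 0.38 in pair 3. In pair 3 the arrays of the opposite orientations lay on separate slides, so dye and slide cannot be told apart there. Averaging both orientations cancels a dye effect in the pair values. A difference between slides in the Cy5 over Cy3 ratio also cancels in pair 2, which had both orientations on both slides. In pair 3 it does not cancel.

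Genes with several probes allowed a second reading of the same transcript. All 3 probes of timp2a were higher in trained fins in pair 3, with log2 ratios of 0.58, 0.95 and 0.51 from the brightest to the dimmest. In pair 2 only the brightest was above 0, and the other probes had -0.16 and -0.12. The second probe of timp2a gave 9.67 in T2 and 9.80 in T3, against 9.83 in C2 and 8.84 in C3, so C3 was the low pool there too.

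The dimmer probe of mmp14b had -0.02 in pair 2 and -0.28 in pair 3, and that of mmp14a had -0.15 and -0.16. For these dim probes both trained pools lay below both control pools, as for 13.9% of all genes by their brightest kept probe. For the dim mmp14b probe T2 was 6.955 and C3 6.971, a gap smaller than the 0.155 by which its repeat arrays differed. The log2 intensities of the dim mmp14a probe were 6.858 in T2 and 6.758 in T3, against 7.004 in C2 and 6.919 in C3. The second kept probe of timp2b had 0.10 in pair 2 and -0.27 in pair 3, and its dimmest probe was well above background in 1 of 6 trained and 2 of 6 control channels and was not kept.

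**Figure D4:**
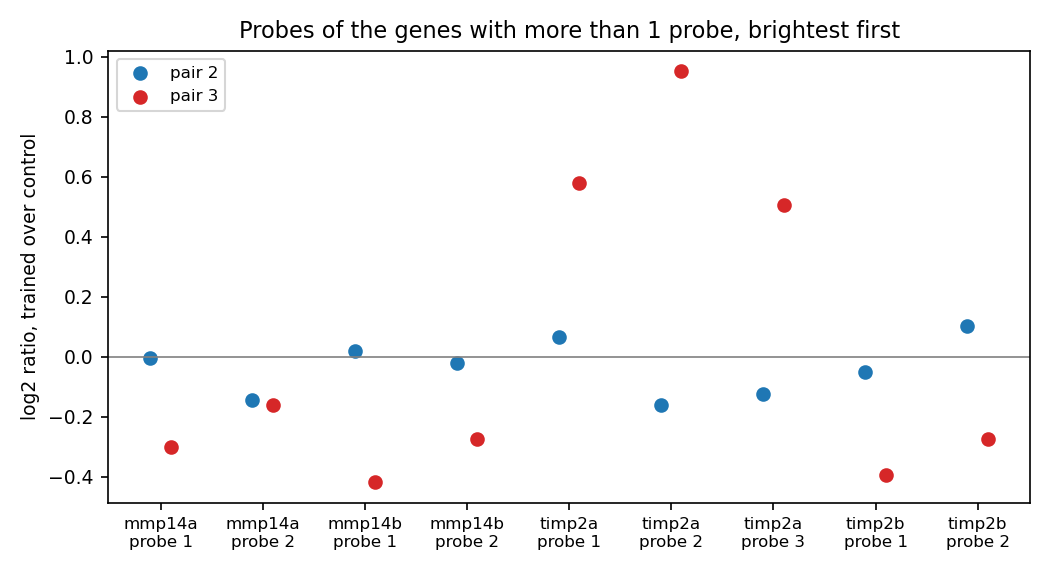
Log2 ratio of trained over control in pool pair 2 (blue) and pool pair 3 (red) for each kept probe of mmp14a, mmp14b, timp2a and timp2b, brightest probe first. All probes of timp2a are above 0 in pair 3 and all those of mmp14a, mmp14b and timp2b are below 0 there.

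One more gene of the family, mmp23bb, had probes on the array but is not among the 10 listed. Its brightest probe had log2 intensities of 7.71 in T2 and 7.76 in T3, against 7.85 in C2 and 7.77 in C3. The log2 ratio of that probe was -0.14 in pair 2 and -0.01 in pair 3 (mean -0.08 ± 0.17, limma adjusted p = 0.914). Its second probe had 0.01 in pair 2 and 0.08 in pair 3, and its dimmest had -0.12 and -0.36. The dimmest was well above background in 3 of 6 trained and 6 of 6 control channels.

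Genes that act beside the family gave no call either, and 0 members of any list described here passed in limma over all genes. Those with an unadjusted p under 0.05 in limma were mep1a.1, serpinh1a, tfpia, col5a2a and etv4 among the proteases, inhibitors, matrix genes and regulators. Among the cell type markers they were ca2, ifitm5, krt8, krt5 and plvapb. The other protease inhibitors (13 measured) and the epidermal genes (22 measured) each had 1 lower and 1 higher. Every other list had at most 1 such gene. Over all genes 3.99% passed that unadjusted threshold. Among 8 measured genes of the related ADAM and ADAMTS proteases the median log2 ratio was 0.10, with 5 above 0. The named members were adam28, at 0.70 ± 0.28, and the sheddase gene adam17a, at 0.17 ± 0.17. Among 17 cathepsin, meprin and procollagen-processing genes the median was -0.08, with 11 below 0, and the meprin alpha gene mep1a.1 had 0.64 ± 0.17 while pcolcea, which enhances procollagen processing, had -0.55 ± 0.23. Among 13 genes of other protease inhibitors and serpins the median was 0.01, with serpinh1a, a collagen chaperone, at -0.56 ± 0.17 and tfpia, a coagulation inhibitor, at 0.86 ± 0.32.

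Among 9 genes of activators and partners, which include proprotein convertases that activate membrane-type enzymes, the median was 0.00, with the convertase gene pcsk5b at 0.72 ± 0.34 and the tight junction gene cldn1 at 0.34 ± 0.18. Among 25 genes of matrix proteins that such enzymes cut or remodel the median was 0.03, with the collagen V gene col5a2a at -0.71 ± 0.25 and the tenascin gene tncb at 1.18 ± 0.50. Among 20 genes of AP-1 factors, cytokines and other regulators of the family the median was 0.04, with the ETS factor gene etv4 at -0.58 ± 0.22 and the AP-1 gene fosab at 0.77 ± 0.35. In pair 2 pcsk5b had 0.06, tncb 0.10 and fosab 0.08, against 1.38, 2.25 and 1.47 in pair 3. For cldn1, col5a2a and etv4 the values were 0.17, -0.28 and -0.25 in pair 2, against 0.51, -1.14 and -0.90 in pair 3.

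Cells that can carry these proteases were followed by their markers. Of 18 macrophage genes 13 were measured, with a median log2 ratio of -0.02, and their summed log2 level was 11.14 in T2 and 10.74 in T3, against 11.05 in C2 and 10.82 in C3. Like mmp2, this sum was lowest in T3 and highest in T2. The summed levels of the cathepsin list and of the list of other protease inhibitors had their lowest and highest pools in the same places. Single macrophage genes differed in their lowest pool. The gene coro1a had 7.98 in T3 and 8.44 in C3, whereas spi1b had 7.82 and 7.34 and mpeg1.1 had 6.76 and 6.61. The part of the macrophage genes in the mmp2 values was not tested. The named members were the transcription factor gene spi1b at 0.35 ± 0.18 and mfap4.1 at -0.25 ± 0.17. Of 10 neutrophil genes 2 were measured, the NADPH oxidase genes cyba and ncf1, with log2 ratios of -0.08 ± 0.17 and 0.05 ± 0.19. Of 15 osteoclast genes 8 were measured, with a median of 0.05, the carbonic anhydrase gene ca2 at 0.59 ± 0.17 and the collagen-degrading protease gene ctsk at -0.84 ± 0.39. In pairs 2 and 3 ca2 had 0.65 and 0.53, whereas ctsk had -0.03 and -1.64. No probe of the osteoclast gene acp5a was kept, and acp5b had 0.04 ± 0.17.

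Osteoblast genes had a median of 0.18 over 10 measured genes, with -0.03 in pair 2 and 0.41 in pair 3. The named members were ifitm5 at -0.49 ± 0.17 and bglap, osteocalcin, at 0.50 ± 0.23. The 19 measured fin mesenchyme genes had a median of -0.05 over both pairs and -0.20 in pair 3, with 11 below 0 and 8 above. The genes of the list with the smallest p were twist2 at -0.46 ± 0.19 and twist3 at -0.57 ± 0.25. The actinotrichia genes and2, and1 and and4, named after their values were seen, had log2 ratios of 0.51, 0.27 and 0.28. In that order they had 0.03, 0.37 and 0.11 in pair 2, and 0.98, 0.17 and 0.44 in pair 3. Each had both trained pools above both control pools, as did 22.7% of all genes, but in none did all 6 arrays share a sign. Also of this list, and3 had 0.03, with -0.20 in pair 3, and its trained and control pools overlapped. Epidermal genes had a median of 0.18 over 22 genes, with the keratin genes krt8 at -0.69 ± 0.23 and krt5 at 0.61 ± 0.20. That median was 0.16 in pair 2 and 0.27 in pair 3. With median centring in place of loess it was -0.04, and with probes averaged 0.07. Of 20 endothelial genes 12 were measured, with a median of -0.18, and 9 were below 0 and 3 above. No probe of the endothelial genes kdrl and cdh5 was kept. The named members were plvapb at -0.81 ± 0.24 and flt4 at -0.47 ± 0.19. In the other direction, plvapa of the same list had 0.56 ± 0.25. The 13 measured genes of posterior identity had a median of 0.06, with evx1 at 0.41 ± 0.17 and hoxc13b at -0.51 ± 0.23.

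The genes most like mmp30 and timp2a were sought by the root mean square difference of their 6 array log2 ratios, as a description. Those nearest to mmp30 were sf1, xiap and hmgn3, at differences of 0.06, 0.07 and 0.07, and those nearest to timp2a were mvb12bb, axin1 and cyp26c1, at 0.07, 0.07 and 0.08. For scale, the root mean square of the ratios themselves was 0.46 for mmp30 and 0.42 for timp2a. The 6 arrays share 4 RNA pools and are not independent.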

How the data were processed

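The scans were extracted by the authors with Agilent Feature Extraction 10.5.1.1, per the submitters' processing notes. The deposited files hold median spot and background intensity per channel, a processed intensity, and the log10 of Cy5 over Cy3, which the deposited value table repeats. From these, local backgrounds over 10 median absolute deviations away from an array's median were set to that median, and median intensities were corrected with normexp at offset 50, which compresses ratios of dim probes. Loess was run within arrays (R 4.3.3, limma 3.58.1) without control and outlier-flagged spots. Trained over control log2 ratios were averaged per dye orientation, then per pool pair. The brightest kept probe stood for its gene. Pair values were tested against 0 with limma, two-sided, with Benjamini-Hochberg adjustment over 15772 genes, 1 residual degree of freedom and a prior of 4.15. Intervals of 95% come from this fit. Pool levels came from separate channels after Aquantile. The RefSeq table of GRCz12tu named 25173 probes by unversioned accession. Tested on simulated data of 15772 genes, the fit called 59% of genes changed 2-fold, 100% of those changed 4-fold and 5 unchanged genes. In that simulation all genes of a pair had the same SD, and a change was equal in both pairs. Measured genes differed in spread. Even the gene with the largest mean log2 ratio, 2.40, did not pass, and the lowest adjusted p in limma was 0.751. The simulated shares therefore do not say which changes the test could find in these data.

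Besides the family, the text names up to 2 genes of each list with the smallest unadjusted p, and the 3 genes nearest to each of the 2 members with the largest mean difference. The actinotrichia genes, plvapa, coro1a, mpeg1.1 and acp5b were named outside this rule. Members, lists and design were chosen with earlier results of these data known. Sequences and coordinates were not used. Precision is limited by the number of pools and arrays.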

Additional observations from a re-analysis of the deposited data

How the results depend on the processing

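Over 18 alternatives of background correction, normalisation, filter, probe choice, replicate structure and slide, each of the 7 genes kept the direction of its mean. Their ratios were unchanged with Aquantile, without the filter on dim probes and with a filter on both channels. They were also unchanged with the pools unpaired and with an intensity trend and robust prior. Those alternatives therefore did not test the direction. None of the 7 was called in the alternatives with a test. The log2 ratio ran from -0.36 to -0.05 for mmp2, 0.05 to 0.23 for mmp9, -0.35 to -0.10 for mmp14a, -0.38 to -0.13 for mmp14b, -0.51 to -0.20 for mmp30, 0.09 to 0.42 for timp2a and -0.37 to -0.06 for timp2b. The ends 0.42 for timp2a, -0.37 for timp2b and -0.05 for mmp2 came from fits within a slide. Within a slide, pair 3 has only a single dye orientation, so a dye effect does not cancel in it. The lowest adjusted p was 0.0990, for mmp9 with the 6 arrays taken as independent, which makes p-values too small because arrays of a pair share RNA. The median of the 7 genes ran from -0.35 with median centring to -0.10 with arrays as independent, beside -0.15 as reported. The values nearest 0 for mmp30 and timp2b, -0.20 and -0.06, came with local backgrounds as deposited.

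Leaving out a pool pair leaves 1 pair and no test. Without pair 3 the sign turned for mmp2 (0.0906), mmp14b (0.0201) and mmp30 (0.0387), and without pair 2 these genes had -0.34, -0.42 and -0.79. The cause was not tested. The number of genes below 0 in both pairs was 1 with processed signals, with offset 10, with median centring, with the deposited value table and within slide 2. The number above 0 in both pairs was 1 with median centring and with probes averaged.

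Over all genes limma called 11 higher and 18 lower with 6 arrays, a dye term and a random replicate block for the pool pair. It called 1 and 4 when slide was added, and 225 and 143 with arrays as independent. With an intensity trend and robust prior it called 1 and 6. The fits with a replicate block also took degrees of freedom from arrays that share RNA. Their p-values, like those with arrays as independent, can be too small. Taking the 4 pools as unpaired, with no replicate block, called 0 genes, and mmp30 and timp2a had adjusted p of 0.895 each. Of 300 medians of related lists under these settings 42 moved by more than the spread between pairs, the SD of the 2 pair medians. This count depends on how wide that spread was. For the matrix protein genes the pair medians were 0.03 and 0.04, and 9 of 20 medians stayed within it. For the osteoblast genes they were -0.03 and 0.41, and 20 of 20 stayed within it.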
